A study of Homo sapiens with 24 samples.

Results

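This report covers 9 genes of the plasminogen system and the matrix metalloproteases: PLAU, PLAT, PLAUR, SERPINE2, MMP1, MMP3, MMP14, TIMP1 and TIMP3. They were taken by name from the table of exon counts per gene, in which they are 9 of 61533 rows, and each matched a single Ensembl identifier in GENCODE. Their levels were read in 24 libraries of newly made RNA. The RNA was labelled with 200 µM 4-thiouridine (4sU) for 1 h, pulled down through biotin and sequenced (4sU-seq).

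The cells were U2OS, a human osteosarcoma line with little glucocorticoid receptor (GR) of its own, and every line used here carried an added GR fused to HaloTag, a tag that binds a fluorescent dye. The construct was wt GR, the SoF mutant (K492A, separation of function, made to weaken RNA binding) or the Ctrl mutant (R470A, made as a control for the weaker DNA binding that comes with SoF). Each was integrated by PiggyBac behind a CMV promoter, selected and sorted by dye signal, so each line was 1 stable pool and the construct and the pool cannot be told apart. Dexamethasone, a synthetic glucocorticoid, was given at 100 nM for 1, 2 or 3 h. The 0 h cells of the same line received 0.01% ethanol for a time the sources used here do not give, and none of these libraries can be taken as matched in duration to a treated group. With 2 libraries for every line at every time, there were 12 groups. The labels do not say whether these came from separate cultures, so p-values measure the spread between the libraries only. Per the study's methods, replicates were handled as pairs in biotinylation and pulldown. If the 2 libraries of a group shared a pulldown, variation between pulldowns lies between the groups and is missing from that spread. Pulldown could then not be told apart from time or line.

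Plasmin is a broad protease that is cut from plasminogen by the activators urokinase (PLAU) and tissue plasminogen activator (PLAT). Urokinase acts at the cell surface on its receptor (PLAUR), and serpins such as SERPINE2 block the activators. Matrix metalloproteases digest the extracellular matrix, some of them are activated by plasmin, and TIMP proteins inhibit them. Glucocorticoids are known to lower the transcription of several of these proteases, MMP1 and MMP3 among them, through GR acting on AP-1 and NF-κB.

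Total counts per library lay between 8106036 and 15820806. CPM stands below for counts on the scale of a shared library total, corrected with TMM factors. The NR3C1 row takes reads of the construct and of the cells' own GR gene alike. It was at 769 ± 457 CPM in wt, 2850 ± 1920 in SoF and 3500 ± 2100 in Ctrl (SD, n = 8 libraries each). The SD takes in the time course, with the highest level at 1 h and the lowest at 3 h in every line. The wt libraries were at 551 and 822 CPM at 0 h, 1310 and 1590 at 1 h, and 333 and 365 at 3 h. In SoF they were at 2830 and 2420, 6260 and 5320, and 1120 and 1130 CPM. In Ctrl they were at 3200 and 3420, 5580 and 7640, and 1760 and 1620 CPM. These are levels of newly made RNA and not of receptor protein. Among mesenchymal markers VIM, SPARC, COL1A1, RUNX2 and FN1 were at a median of 667, 255, 527, 106 and 1230 CPM, while COL1A2 was at 0.209 and the bone genes SP7 and IBSP at 0. KRT8 and KRT18 were at 169 and 249 CPM, KRT19 at 0, EPCAM at 1.89 and CDH1 at 4.57. Of 4 blood markers PTPRC had counts in every library (median 0.951 CPM), CD3E and CD14 were at a median of 0 and 0.102 and HBB had no count, and of 3 endothelial markers VWF was at 3.15 CPM, PECAM1 at 0.0882 and CDH5 at 0.194.

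A first question was which of these genes the cells transcribed at all. TIMP1, TIMP3, PLAU, PLAUR and MMP14 gave the most newly made RNA per length, PLAT and SERPINE2 less, MMP3 little and MMP1 next to none. Per kilobase of exon, the median over 24 libraries was 51.8 CPM for TIMP1 (lowest 24.9, highest 99.6). It was 28.4 CPM per kb for TIMP3 (17.8 to 41.4), 21.1 for PLAU (10.7 to 50.3), 16.3 for PLAUR (7.89 to 28.6) and 15.4 for MMP14 (8.36 to 18.8). Neighbours in this order overlapped, while every library of TIMP1 stood above every library of MMP14. PLAT followed at 5.64 CPM per kb (3.22 to 7.50) and SERPINE2 at 3.97 (2.72 to 5.21), with overlapping ranges that lay below the lowest library of MMP14. Length takes in all annotated exons of a gene, 7770 bases for PLAT and 8957 for SERPINE2, and the gaps between genes depend on it. Not divided by length, PLAT was at 43.8 CPM (25 to 58.3) and SERPINE2 at 35.6 (24.3 to 46.7). These ranges overlapped that of MMP14, at 71 CPM (38.6 to 87.1). MMP3 was at 1.47 CPM per kb with the widest relative spread of the 8 detected genes, from 0.140 to 9.53.

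MMP1, interstitial collagenase (ENSG00000196611.6, chr11:102789401-102798160, hg38, minus strand), had 4 counts in all 24 libraries together. A single count stood in wt at 0 h replicate 1, wt at 3 h replicate 2, SoF at 2 h replicate 2 and Ctrl at 1 h replicate 1, and the other 20 libraries had 0. A count of 0 allows up to 3 counts, which was 0.202 to 0.352 CPM depending on the library. The pooled level was 0.0140 CPM with an exact 95% Poisson interval of 0.00382 to 0.0359, which covers counting error only. A glucocorticoid effect on MMP1 was not detectable at this depth, and the gene did not pass the count filter (at least 10 counts in enough libraries), so the tests below concern 8 of the 9 genes.

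Each time point was then compared with 0 h, as the mean of the differences within the 3 lines, to ask when the genes responded to dexamethasone. MMP3 fell and PLAT rose by 2 h and both held at 3 h. PLAU, PLAUR and TIMP1 were lower at 1 h, PLAUR, TIMP1 and TIMP3 were higher at 2 h and MMP14 was higher at 3 h, but these calls depended on which 0 h libraries were used. SERPINE2 was called at no time. The edgeR quasi-likelihood test was applied over 23651 genes with Benjamini-Hochberg adjustment, and genes with an adjusted p under 0.05 count as called. In bulk RNA, fewer cells that transcribe a gene and less RNA per cell cannot be told apart.

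**Figure D1:**
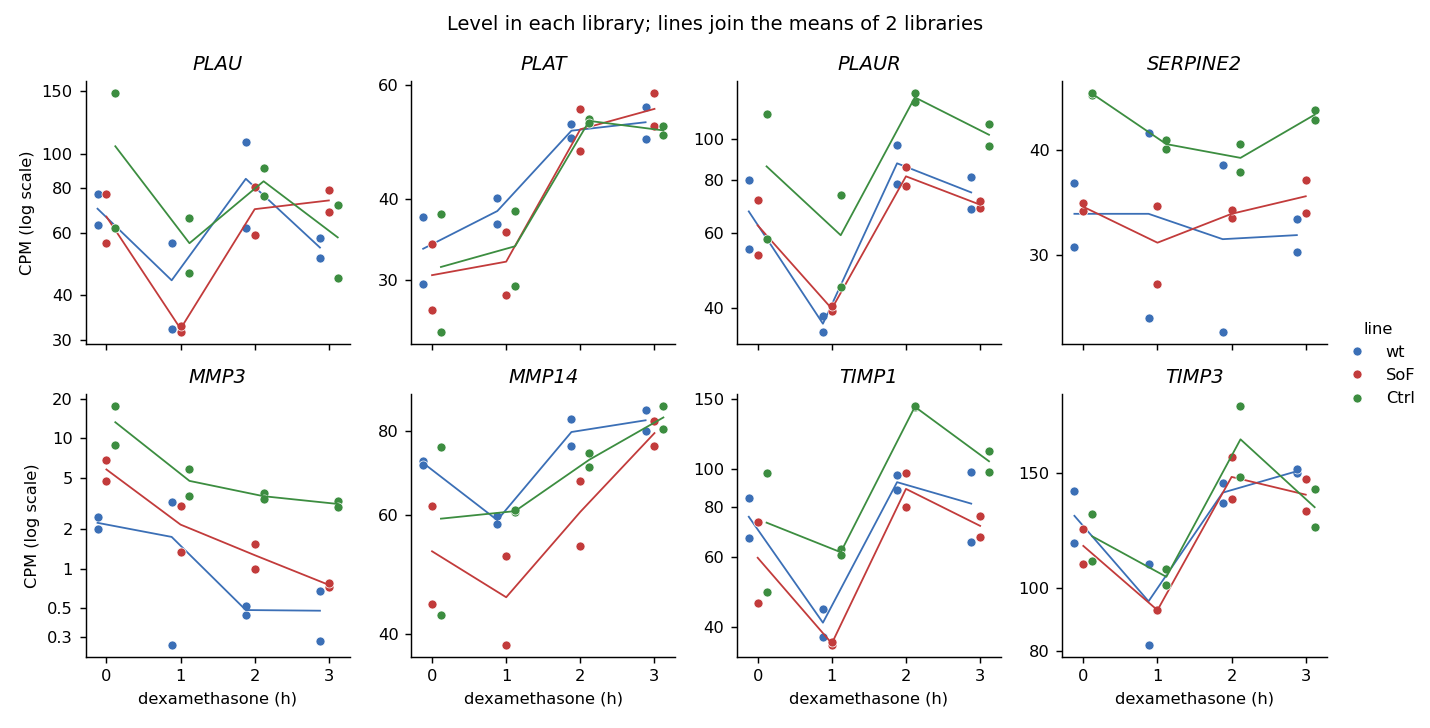
CPM (y axis, log scale) against hours of dexamethasone (x axis) for the 8 genes with enough counts, 1 panel per gene. Points are single libraries, coloured by line, and lines join the mean of the 2 libraries of a group. MMP3 descends in every line, PLAT lies higher at 2 and 3 h in all of them, and PLAUR, TIMP1 and TIMP3 are lowest at 1 h and step up at 2 h.

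MMP3, stromelysin-1 (ENSG00000149968.12, chr11:102835801-102843609, minus strand), is a secreted protease with many matrix substrates and lies beside MMP1. In wt it was at 2.49 and 2.00 CPM at 0 h, 0.259 and 3.24 at 1 h, 0.440 and 0.519 at 2 h, and 0.669 and 0.279 at 3 h. In SoF it was at 6.84 and 4.70 CPM at 0 h, 3.01 and 1.34 at 1 h, 1.54 and 0.993 at 2 h, and 0.725 and 0.772 at 3 h. In Ctrl it was at 17.7 and 8.93 CPM at 0 h, 5.80 and 3.63 at 1 h, 3.79 and 3.40 at 2 h, and 3.30 and 2.97 at 3 h. Within each line both 2 h libraries and both 3 h libraries lay below both 0 h libraries, and the 1 h libraries did so in SoF and Ctrl but not in wt, whose 1 h libraries had 3 and 42 counts.

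Over the 3 lines MMP3 was 4.29-fold lower at 2 h (log2 fold change -2.10, SE 0.34, edgeR adjusted p = 6.91e-05) and 5.37-fold lower at 3 h (-2.43, SE 0.35, adjusted p = 8.3e-06). At 1 h the log2 fold change was -1.08 (SE 0.30) and missed the threshold (edgeR adjusted p = 0.0898). With libraries left out in 14 ways it ranged from -2.0 to -0.74. The value of -2.0 came without the wt 1 h library that stood high, which leaves the 1 with 3 counts in that group. MMP3 overlaps WTAPP1 on the other strand, and strand-specific counting is stated only by the table's title, so reads of the pair may be mixed.

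PLAT (ENSG00000104368.19, chr8:42174718-42207709, minus strand), tissue plasminogen activator, went the other way. In wt it was at 37.5 and 29.6 CPM at 0 h, 36.6 and 40.1 at 1 h, 49.7 and 52.3 at 2 h, and 49.6 and 55.5 at 3 h. In SoF the values were 34.1 and 27.0 CPM, 35.6 and 28.5, 55.0 and 47.5, and 58.3 and 51.9 in the same order. In Ctrl they were 37.9 and 25 CPM, 38.3 and 29.4, 53.1 and 52.5, and 51.8 and 50.3. All 12 libraries of 2 and 3 h, from 47.5 to 58.3 CPM, stood above all 12 libraries of 0 and 1 h, from 25 to 40.1 CPM. The rise over the 3 lines was 1.62-fold at 2 h (log2 fold change 0.69, SE 0.11, edgeR adjusted p = 4.14e-05) and 1.65-fold at 3 h (0.73, SE 0.11, adjusted p = 1.17e-05). At 1 h it was 0.12 (SE 0.11, adjusted p = 0.633).

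MMP14 (ENSG00000157227.14, chr14:22836560-22849041, plus strand) encodes MT1-MMP, a membrane-bound protease that activates pro-MMP2. Its 6 libraries at 0 h had a lowest, median and highest level of 42.8, 66.5 and 75.9 CPM, against 38.6, 59.0 and 61.1 at 1 h, 54.1, 72.5 and 83.5 at 2 h, and 76.1, 81.7 and 87.1 at 3 h. The 3 h libraries all stood above the 0 h libraries, although the 2 h libraries overlapped both. It was 1.34-fold higher at 3 h (log2 fold change 0.43, SE 0.11, edgeR adjusted p = 0.00491), and at 2 h the value was 0.21 (SE 0.11, adjusted p = 0.181). With replicate 1 alone as the 0 h reference the 3 h difference was 0.24 and lost its call (adjusted p = 0.0736).

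Urokinase and its receptor had a low point at 1 h. PLAU (ENSG00000122861.16, chr10:73909177-73917496, plus strand) was at 62.8 and 77.2 CPM in wt at 0 h and at 32.2 and 55.9 at 1 h. In SoF it went from 76.9 and 56.1 to 31.6 and 32.8 CPM, and in Ctrl from 148 and 61.7 to 65.9 and 46.1 CPM. Each 1 h library of wt and SoF lay below the 0 h libraries of its line, and in Ctrl the groups overlapped. At 2 h PLAU was at 58.9 to 108 CPM over the 6 libraries (median 78.3) and at 3 h at 44.8 to 79.1 (63.3), within or near the 0 h range. PLAU overlaps C10orf55 on the other strand.

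PLAUR (ENSG00000011422.12, chr19:43646095-43670547, minus strand) was at 79.9 and 55.0 CPM in wt at 0 h, 35.2 and 38.3 at 1 h, 78.3 and 96.7 at 2 h, and 68.3 and 81.2 at 3 h. In SoF it was at 71.8 and 53.3 CPM, 39.3 and 40.4, 85.9 and 77.2, and 68.7 and 71.2 in that order. In Ctrl it was at 114 and 58.1 CPM, 73.7 and 44.9, 128 and 122, and 96.2 and 108. The 6 libraries at 1 h (35.2 to 73.7 CPM) were all below the 6 at 2 h (77.2 to 128 CPM), while the 0 h libraries, at 53.3 to 114 CPM, overlapped both.

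TIMP1 (ENSG00000102265.12, chrX:47582408-47586789, plus strand), a secreted inhibitor of many metalloproteases, had the same order of levels as PLAUR. It was at 84.7 and 66.8 CPM in wt at 0 h, 44.3 and 37.6 at 1 h, 96.6 and 88.6 at 2 h, and 65.3 and 98.2 at 3 h. In SoF it was at 73.5 and 45.9 CPM, 36.0 and 36.6, 97.8 and 80.3, and 67.4 and 76.3. In Ctrl it was at 97.6 and 48.8 CPM, 62.7 and 60.6, 143 and 144, and 98.1 and 111. The 1 h libraries (36.0 to 62.7 CPM) and the 2 h libraries (80.3 to 144 CPM) did not overlap.

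TIMP3 (ENSG00000100234.12, chr22:32801705-32863041, plus strand), an inhibitor that binds to the matrix, lay at 109 to 141 CPM at 0 h (median 120), 81.8 to 109 at 1 h (96.8), 135 to 190 at 2 h (146) and 124 to 152 at 3 h (144). Within each line both of its 1 h libraries stood below both 0 h libraries, and the 1 h and 2 h ranges did not overlap.

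The 1 h values against 0 h were log2 fold changes of -0.88 (SE 0.19, edgeR adjusted p = 0.0176) for PLAU, -0.69 (SE 0.14, adjusted p = 0.0118) for PLAUR and -0.62 (SE 0.14, adjusted p = 0.0258) for TIMP1. That of TIMP3 was -0.32 (SE 0.09, adjusted p = 0.102). These were 3 of the 8 genes tested, beside 0.55% of all tested genes called lower at 1 h. Replicate 1 was higher than replicate 2 at 0 h in all 3 lines for PLAUR, PLAT, MMP3, MMP14 and TIMP1, and in 2 of 3 lines for PLAU and TIMP3. Without the 3 replicate 1 libraries at 0 h, the 1 h values were -0.60 for PLAU, -0.34 for PLAUR and -0.25 for TIMP1 and none of the genes was called, whereas 6 were called without the 3 replicate 2 libraries. A single 0 h library was enough: no gene was called at 1 h without SoF 0 h replicate 1 or without Ctrl 0 h replicate 1.

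At 2 h against 0 h the log2 fold changes were 0.43 (SE 0.14, edgeR adjusted p = 0.0251) for PLAUR, 0.61 (SE 0.14, adjusted p = 0.00232) for TIMP1 and 0.32 (SE 0.09, adjusted p = 0.0103) for TIMP3. With PLAT, 4 of 8 genes were called higher, beside 16.2% of all tested genes, and MMP3 was the 1 gene called lower, beside 12.6%. With replicate 1 as the only 0 h reference the calls of PLAUR, TIMP1 and TIMP3 were lost (0.14, 0.32 and 0.30), and those of PLAT and MMP3 stood. At 3 h, 2 of 8 genes (PLAT and MMP14) were called higher, beside 20.9% of all genes, and 1 lower, beside 19.3%, so the numbers of calls at 3 h were near the background. Without the 3 replicate 1 libraries at 0 h, PLAUR (0.55) and TIMP1 (0.68) were also called higher at 3 h. The 3 time comparisons share their 0 h libraries. These deviated together by replicate number across the lines, so the errors of the 3 comparisons may be too small.

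**Figure D2:**
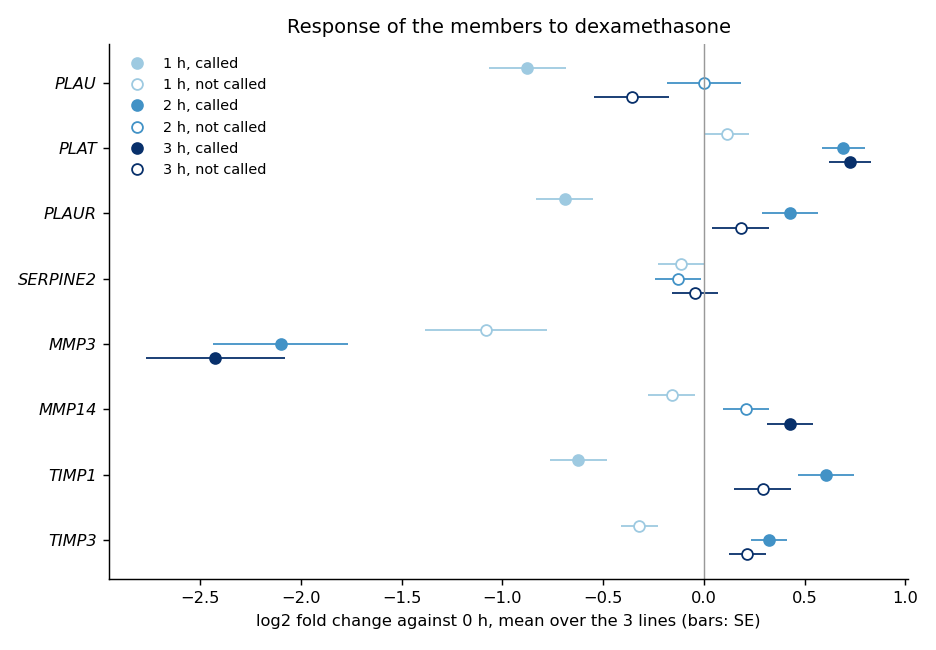
Log2 fold change against 0 h (x axis), as the mean over the 3 lines, for each gene (y axis) at 1, 2 and 3 h. Bars are standard errors, filled points passed the edgeR threshold and open points did not. MMP3 lies at -2.10 and -2.43 at 2 and 3 h, PLAT at 0.69 and 0.73, and SERPINE2 stays within 0.13 of 0.

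The step from 1 h to 2 h uses no 0 h library, and it was added after the levels had been seen. TIMP1 rose 2.35-fold (log2 fold change 1.23, SE 0.14, edgeR adjusted p = 8.4e-07), PLAUR 2.17-fold (1.12, SE 0.14, adjusted p = 2.79e-06), PLAU 1.84-fold (0.88, SE 0.19, adjusted p = 0.000837) and TIMP3 1.56-fold (0.64, SE 0.09, adjusted p = 1.01e-05). PLAT rose 1.49-fold (0.58, SE 0.11) and MMP14 1.29-fold (0.37, SE 0.12), and MMP3 fell 2.03-fold (-1.02, SE 0.37, edgeR adjusted p = 0.0273). In all, 6 of 8 genes were called higher, beside 22.7% of all tested genes, and 1 lower, beside 22.1%. The rises of PLAU, PLAUR, PLAT, TIMP1 and TIMP3 kept their call when any 1 of the 12 libraries was left out. MMP14 lost it without SoF 1 h replicate 2 (0.30) or SoF 2 h replicate 1 (0.32). The fall of MMP3 lost it without any 1 of 7 of the 12 libraries, and without wt 1 h replicate 2 it was -0.10 (adjusted p = 0.871).

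SERPINE2 (ENSG00000135919.14, chr2:223975045-224039318, minus strand), protease nexin-1, inhibits urokinase, tissue plasminogen activator and thrombin. Its median CPM over 6 libraries was 35.5 at 0 h, 37.2 at 1 h, 35.8 at 2 h and 35.2 at 3 h, and the ranges overlapped at all 4 times. The log2 fold changes were -0.11 at 1 h, -0.13 at 2 h and -0.04 at 3 h (SE 0.12 each, edgeR adjusted p = 0.671, 0.433 and 0.799).

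Levels of the genes were set beside each other over the 12 group means of log2 CPM, as a description. The 12 points share libraries and 0 h references, and a general difference between times moves many genes at once. PLAUR and TIMP1 gave a Pearson r of 0.97, TIMP1 and TIMP3 0.92, PLAUR and TIMP3 0.88, and PLAU and PLAUR 0.76. MMP3 gave -0.65 with PLAT and 0.76 with SERPINE2. Of all other tested genes, those nearest in pattern were WWP2, TRIM8 and PHC2 for PLAUR (r of 0.971, 0.963 and 0.961), S100A2, LFNG and TNFAIP2 for TIMP1 (0.985, 0.984 and 0.981), and LOXL4, ARPC5L and NAB2 for TIMP3 (0.978, 0.972 and 0.972). For PLAU they were USP22, PDHA1 and STK40 (0.893, 0.883 and 0.878), and for PLAT RPIA, LTBR and CYB561 (0.984, 0.984 and 0.978). For MMP14 they were ANKRD52, NELFB and KDELR1 (0.988, 0.983 and 0.983), for MMP3 RN7SL368P, LUCAT1 and RAB2B (0.958, 0.958 and 0.946), and for SERPINE2 APCDD1L-DT, ENSG00000244675 and TXNRD1 (0.952, 0.948 and 0.944).

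Sequence from RefSeq promoter windows is shown for PLAUR, TIMP1 and TIMP3, among the 6 genes called higher from 1 h to 2 h. The others were PLAU, PLAT and MMP14, and the windows of PLAU and MMP14 were searched but are not shown. RefSeq promoter windows (GRCh38.p14, 250 bases before to 50 after a gene start) were matched for 6 of the 9 genes, in 8 windows. MMP1, MMP3 and PLAT had no window and were not searched. The windows were searched on both strands for AP-1 (TGAGTCA), the glucocorticoid response element (GRE, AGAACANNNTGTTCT) and its half-site (AGAACA), the TATA box (TATAAA), CRE (TGACGTCA) and Sp1 (GGGCGG). A GRE includes its half-sites. Matches are in capitals below, as AP-1 in PLAUR and as Sp1 on either strand in TIMP1 and TIMP3. The stretches are PLAUR at chr19:43670339-43670365 on the minus strand, bases -196 to -170 from the RefSeq start at 43670169, TIMP1 at chrX:47582186-47582407 on the plus strand, and TIMP3 at chr22:32801455-32801704 on the plus strand. GENCODE 44 begins PLAUR further out, at 43670547, so the PLAUR stretch is bases 183 to 209 of that gene span and lies in an annotated exon.
PLAUR: cacaactccaTGAGTCAgggccgagcc
TIMP1: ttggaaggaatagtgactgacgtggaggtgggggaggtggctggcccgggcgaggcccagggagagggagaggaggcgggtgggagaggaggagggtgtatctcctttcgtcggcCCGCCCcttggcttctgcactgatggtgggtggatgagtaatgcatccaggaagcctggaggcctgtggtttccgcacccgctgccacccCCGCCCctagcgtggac
TIMP3: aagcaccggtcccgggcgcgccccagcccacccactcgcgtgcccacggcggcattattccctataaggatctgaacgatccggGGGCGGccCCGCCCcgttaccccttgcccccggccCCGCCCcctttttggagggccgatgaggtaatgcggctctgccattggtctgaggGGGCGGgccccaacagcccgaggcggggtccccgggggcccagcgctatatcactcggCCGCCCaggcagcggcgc

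AP-1 is the site of the FOS and JUN factors. Its exact letters TGAGTCA were found in the PLAUR window alone among the 8, and 4.95% of all 35116 windows hold them. Close variants, such as the tgagtaa in the TIMP1 stretch above, were not searched for. Sp1 letters were found in windows of SERPINE2, PLAU, MMP14, TIMP1 and TIMP3, and 45% of all windows hold them. No window of the genes searched held the GRE half-site (14.8% of all windows), the full GRE (0.00285%), CRE (1.85%) or TATAAA (11.5%). This says nothing of MMP3 and PLAT, which had no window. A match is a run of letters and not a measured binding site, and a window without a match may hold a site in other letters.

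The 3 h response was compared in each line next, since the study set out to compare the GR constructs. PLAT rose and MMP3 fell in each of the 3 lines. PLAT was 1.56-fold higher in wt (log2 fold change 0.64, SE 0.18, edgeR adjusted p = 0.0246), 1.80-fold in SoF (0.85, SE 0.18, adjusted p = 0.00252) and 1.61-fold in Ctrl (0.69, SE 0.18, adjusted p = 0.0150). MMP3 was 4.71-fold lower in wt (-2.24, SE 0.69, adjusted p = 0.0396), 7.68-fold in SoF (-2.94, SE 0.61, adjusted p = 0.00160) and 4.29-fold in Ctrl (-2.10, SE 0.48, adjusted p = 0.00547).

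**Figure D3:**
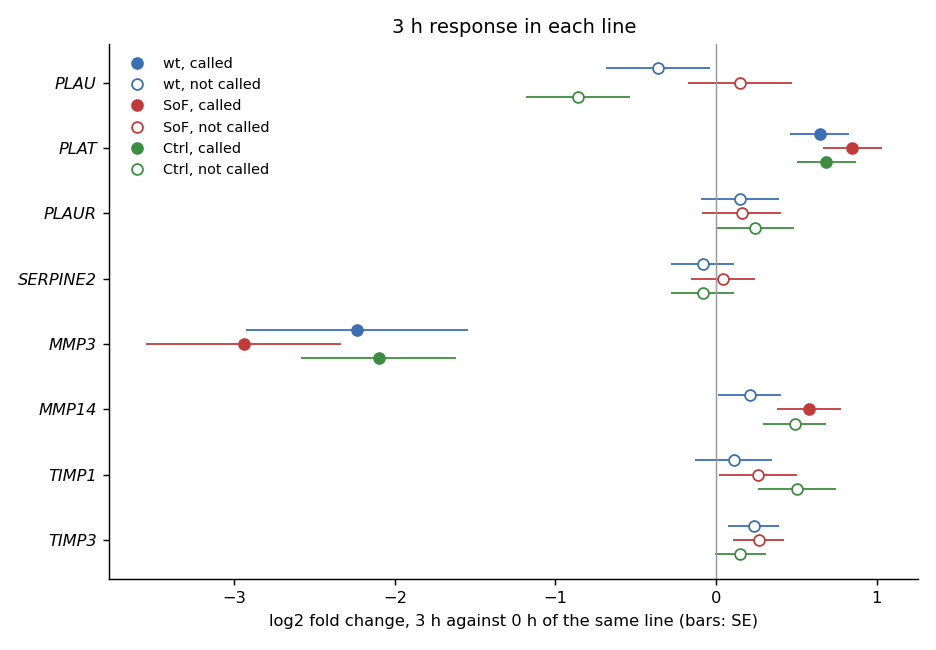
Log2 fold change of 3 h against 0 h (x axis) for each gene (y axis) in wt, SoF and Ctrl. Bars are standard errors and filled points passed the edgeR threshold. PLAT (0.64, 0.85 and 0.69) and MMP3 (-2.24, -2.94 and -2.10) are filled in all 3 lines, and MMP14 in SoF at 0.58.

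In wt these were 1 gene higher and 1 lower, beside 6.6% and 4.12% of all tested genes. In Ctrl they were again 1 and 1, beside 8.58% and 5.59%. In SoF 2 genes were higher, beside 11.2%, and 1 lower, beside 8.11%. The added gene in SoF was MMP14, at 61.9 and 44.3 CPM at 0 h and 76.1 and 82.8 at 3 h (log2 fold change 0.58, SE 0.20, edgeR adjusted p = 0.0445), which lost its call without SoF 0 h replicate 2 (0.37, adjusted p = 0.401) or either 3 h library. When each of the 4 libraries behind a line's values was left out in turn, MMP3 kept its call in SoF each time (-3.17 to -2.63), in Ctrl in 2 of 4 cases (-2.50 to -1.49) and in wt in none (-2.96 to -1.73). PLAT kept it in 3 of 4 cases in SoF (0.70 to 1.04) and in 1 of 4 in Ctrl (0.43 to 1.04) and wt (0.50 to 0.81), with its direction the same throughout.

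The test of the difference in 3 h response between lines called none of the 8 genes in any of the 3 pairs by edgeR, and none by DESeq2. Over all tested genes 0.0127% were called for SoF against Ctrl, and 0% for SoF against wt and for Ctrl against wt. At an unadjusted p under 0.05 there was 1 of the 8 genes for SoF against Ctrl, beside 2.84% of all genes, and none for SoF against wt or Ctrl against wt, beside 2.36% and 3.57%. The 1 gene was PLAU, at 71.5 and 44.8 CPM in Ctrl at 3 h and 79.1 and 68.6 in SoF, with a difference of 1.01 (SE 0.46, edgeR adjusted p = 1). It rests on the 0 h library Ctrl replicate 1 (148 CPM): the 3 h change in Ctrl was -0.86 (SE 0.32, edgeR adjusted p = 0.0804) with it and -0.07 without it. For MMP3 the differences were -0.84 (SE 0.79) for SoF against Ctrl, -0.71 (SE 1.01) for SoF against wt and 0.14 (SE 0.77) for Ctrl against wt, errors wide enough that equal responses are not shown. For PLAT they were 0.16, 0.20 and 0.04 (SE 0.26 each).

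Levels were finally compared between lines over all times, 8 libraries each, as the study compared its mutants with wt. MMP3 and SERPINE2 were higher in Ctrl than in wt, and none of the other 6 genes was called. MMP3 had a lowest, median and highest level of 0.259, 0.594 and 3.24 CPM in wt, 0.725, 1.44 and 6.84 in SoF and 2.97, 3.71 and 17.7 in Ctrl. The Ctrl libraries stood above the wt libraries except for a single pair, wt at 3.24 and Ctrl at 2.97 CPM, and SoF overlapped both. The difference between Ctrl and wt was 4.96-fold (log2 2.31, SE 0.55, edgeR adjusted p = 0.0149). In the 0 h libraries alone, without dexamethasone, it was 2.58 and was called too (adjusted p = 0.0222). SoF against wt was 1.00 (SE 0.57, adjusted p = 0.280), and SoF against Ctrl -1.31 (SE 0.52, adjusted p = 0.211).

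**Figure D4:**
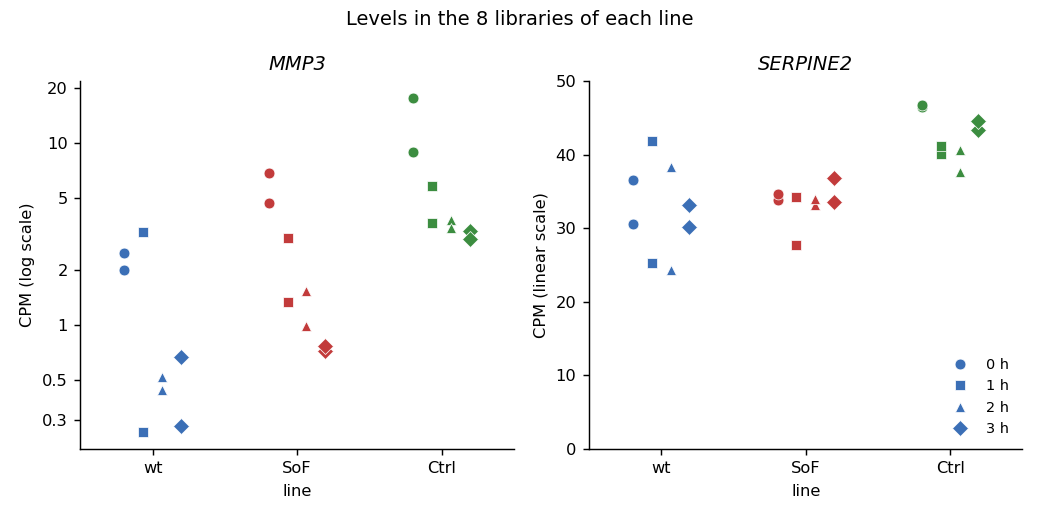
CPM of MMP3 (left, log scale) and SERPINE2 (right, linear scale from 0) in the 8 libraries of each line (x axis), with the time of dexamethasone given by the marker. Ctrl spans 2.97 to 17.7 CPM for MMP3 and 37.6 to 46.7 CPM for SERPINE2, and every Ctrl point of SERPINE2 lies above every SoF point.

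SERPINE2 was at 24.3, 31.9 and 41.9 CPM in wt (lowest, median and highest), 27.7, 33.9 and 36.8 in SoF, and 37.6, 42.2 and 46.7 in Ctrl. The 8 Ctrl libraries did not overlap the 8 SoF libraries, and 2 wt libraries, at 38.3 and 41.9 CPM, reached into the Ctrl range. Ctrl was 1.31-fold above wt (log2 0.39, SE 0.10, edgeR adjusted p = 0.0202), and SoF against Ctrl was -0.34 (SE 0.10, adjusted p = 0.0515), which missed the threshold. The 2 genes were counted beside 2.11% of all 21122 tested genes called higher in Ctrl than in wt. Neither call is firm: without the replicate 1 libraries neither gene was called (MMP3 1.63 and SERPINE2 0.21), and without the replicate 2 libraries SERPINE2 (0.61) was called and MMP3 (2.95, adjusted p = 0.0977) was not. Newly made NR3C1 RNA was also higher in Ctrl than in wt, as given above. The study had chosen sorted fractions to match nuclear GR protein between the lines after dexamethasone, by immunofluorescence. The part of NR3C1 in these differences was not tested.

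By edgeR no gene was called between SoF and wt, beside 8.01% of all genes, with 0 at an unadjusted p under 0.05 (25.1% of all genes) and 0 by DESeq2. None was called between SoF and Ctrl, beside 3.61%, with 4 at an unadjusted p under 0.05, SERPINE2, PLAUR, MMP3 and TIMP1, all lower in SoF (14.3% of all genes), and 1, SERPINE2, by DESeq2. With a term for time in the model, which takes the time course out of the spread, PLAUR (-0.55), TIMP1 (-0.57), MMP3 (-1.38) and SERPINE2 (-0.34) were called lower in SoF than in Ctrl. The same model called MMP3 higher (0.94) and MMP14 lower (-0.31) in SoF than in wt, and SERPINE2 (0.39), PLAUR (0.50), MMP3 (2.32) and TIMP1 (0.39) higher in Ctrl than in wt. Median levels over 8 libraries were 102 CPM in Ctrl, 70.0 in SoF and 73.3 in wt for PLAUR, and 97.8, 70.4 and 75.7 for TIMP1, with overlapping ranges.

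A list of 47 other genes of the same systems was taken as the surroundings, and 28 of them passed the count filter. Plasminogen itself (PLG) did not pass. At 3 h 5 of the 28 were called higher and 4 lower in wt, 8 and 5 in SoF, and 2 and 4 in Ctrl. The shares of all tested genes called higher and lower were 6.6% and 4.12% in wt, 11.2% and 8.11% in SoF, and 8.58% and 5.59% in Ctrl. A2M, a broad protease trap, rose in all 3 lines (log2 fold change 1.09 in wt, 1.71 in SoF and 1.90 in Ctrl). MMP2, a gelatinase, MMP16, a membrane-bound protease, and SERPINB8, an intracellular serpin, fell in all 3, with MMP2 at -1.09, -0.92 and -0.86, MMP16 at -0.83, -0.86 and -0.69, and SERPINB8 at -0.65, -0.94 and -0.78. Of the 28, 9 were metalloproteases, and over the 3 lines 3 of these were higher and 4 lower at 3 h (20.9% and 19.3% of all genes), with a median log2 fold change of 0.26, against -0.04 over all tested genes. For the 8 genes of the main list that median was 0.20. None of the 3 further metalloprotease inhibitors and partners and none of the 6 receptors and clearance genes was called over the 3 lines at 3 h.

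**Figure D5:**
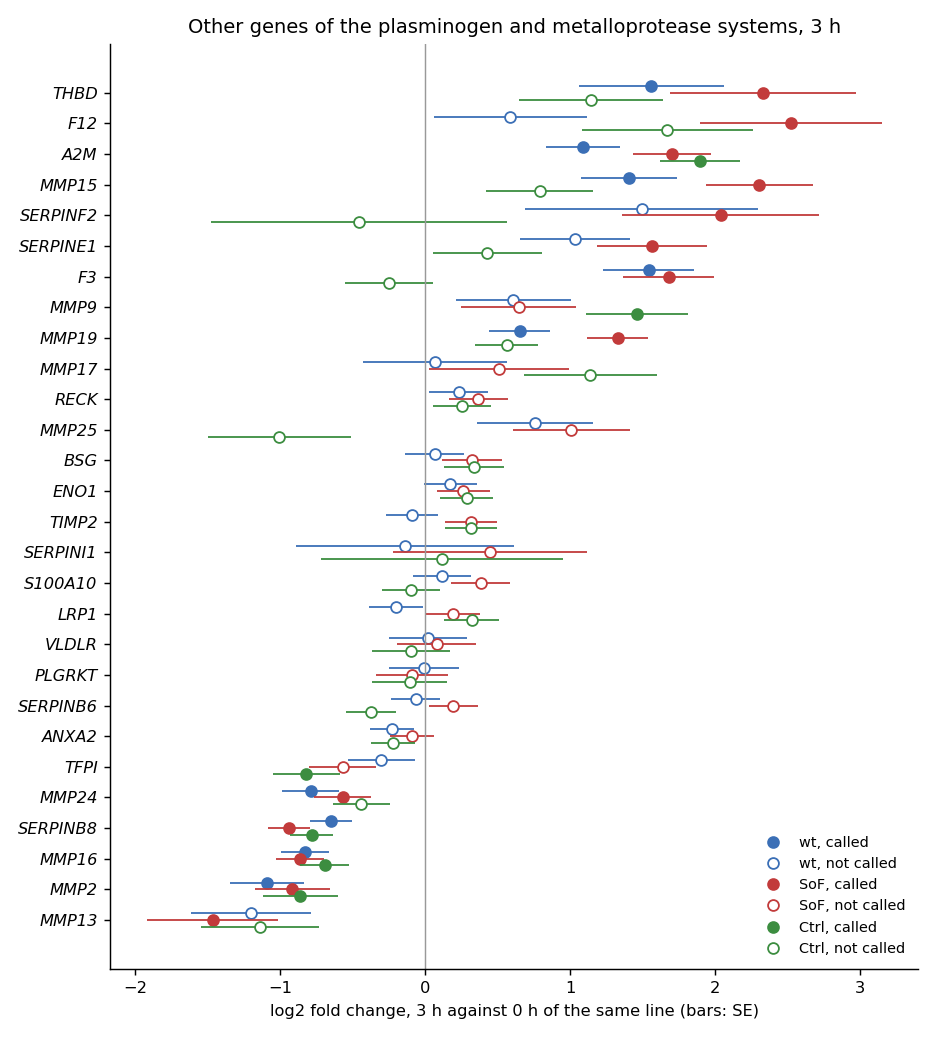
Log2 fold change of 3 h against 0 h (x axis) in each line for the 28 other genes that passed the filter (y axis), ordered by the mean over the lines. Bars are standard errors and filled points passed the edgeR threshold. A2M is filled on the right, and MMP2, MMP16 and SERPINB8 on the left, in all 3 lines.

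Between lines, MMP9, a gelatinase, was 3.05-fold higher in Ctrl than in wt (log2 1.61, SE 0.31, edgeR adjusted p = 0.00285) and lower in SoF than in Ctrl (-1.15, SE 0.31, adjusted p = 0.0299). LRP1, an endocytic receptor that clears complexes of activators with serpins, was lower in SoF than in wt (-0.46, SE 0.11, edgeR adjusted p = 0.0106). These were the list's calls between lines, 1 of 26 tested genes in each pair, beside 2.11% of all genes called higher in Ctrl than in wt, and 8.01% and 3.61% called in either direction for SoF against wt and SoF against Ctrl.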

How the data were processed

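The deposited table holds whole-number exon counts per gene and library. Per the study's methods and processing notes, the authors extracted molecular identifiers (UMI-tools 1.1.2), trimmed reads (Trim Galore 0.6.6), aligned them to hg38 (STAR 2.7.3a), removed duplicates and counted with featureCounts on GENCODE 39. Strand-specific counting is stated only by the table's title. Deduplicated counts are of tagged library fragments and not of whole RNA molecules, and duplicates from amplification do not inflate them. Symbols and positions came from GENCODE 44.

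Here the counts were tested with edgeR 4.0.16 (limma 3.58.1, R 4.3.3): TMM factors, filterByExpr (minimum count 10, total 15), the quasi-likelihood F test, and adjustment after Benjamini and Hochberg over all tested genes. A fit over 12 groups gave the time, step and interaction contrasts (23651 genes), and a fit on the 3 lines gave the line contrasts (21122 genes). Standard errors are the absolute log2 fold change over the square root of F. DESeq2 1.42.0 was the other tool. Total counts of 8106036 to 15820806 put 213 or more counts behind every value of the members other than MMP1 and MMP3 (3 to 248). The code was tested on simulated data.

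The members and lists were chosen with earlier results of these data known. All 9 members are named. Of the 47 wider genes, those called in all 3 lines at 3 h or between lines are named, and for each tested member the 3 genes nearest in pattern. The step from 1 h to 2 h was added after the data were seen. Alternatives were RLE size factors, no filter, a replicate block, a time term, 0 h libraries only, single lines or pairs of lines, and each library left out. No library was left out of the main tests.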

Additional observations from a re-analysis of the deposited data

Results flagged for a closer look

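Single libraries were compared with the rest of their group by Dixon's gap test on log2 CPM, for the 8 libraries of each line and for the 6 libraries of each time over the lines. Of 56 such groups 4 had a library apart, and chance flags about 1 in 20. PLAU at 0 h was highest in Ctrl replicate 1, at 148 CPM against 56.1 to 77.2 in the other libraries, with a gap of 0.672 of the group's range. PLAUR at 1 h was highest in Ctrl replicate 1, at 73.7 CPM against 35.2 to 44.9 (gap 0.669). MMP14 at 1 h was lowest in SoF replicate 2, at 38.6 CPM against 52.2 to 61.1 (gap 0.658). SERPINE2 in SoF was lowest at 1 h replicate 1, at 27.7 CPM against 33.2 to 36.8 (gap 0.631). The first of these carries the PLAU value of Ctrl at 3 h, as given with that result. The groups of 6 mix the 3 lines, which differ in level for some genes.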

How the results depend on the processing

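Of 633 recomputed values of genes called in at least 1 setting, 522 kept direction and side of the threshold, 64 lost the call, 43 gained one and 4 turned. The turned values were TIMP1 in Ctrl against wt in the 0 h libraries (-0.041) and, over the libraries left out, PLAUR at 3 h in Ctrl (-0.156 to 0.831), MMP14 at 1 h (-0.357 to 0.074) and PLAUR at 3 h (-0.089 to 0.554). None was called where it had turned. Counts of called genes at 1 h went from 3 to 5 with DESeq2 and to 5 without the count filter, and at 3 h from 3 to 5 without the filter. Without the filter, 1 gene (PLAU) differed in response between SoF and Ctrl and 1 (MMP3) between the Ctrl and wt lines. SoF against Ctrl lines gave 1 gene (SERPINE2) with DESeq2, RLE factors or the replicate block. A time term gave 2 genes for SoF against wt and 4 each for Ctrl against wt and SoF against Ctrl. The 0 h libraries alone gave 1 for Ctrl against wt, and wt fitted alone 1 at 3 h. The cause was not tested. Leaving out libraries gave 0 to 6 called genes at 1 h, 2 to 6 at 2 h, 3 to 6 at 3 h, 6 to 7 for the step, 0 to 1 at 3 h in wt, 1 to 3 in SoF and 0 to 4 in Ctrl, and 0 to 1 between Ctrl and wt.

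Replicate numbers were not taken as pairs, since deviations of same-numbered libraries correlated at over 0.1 in 21 of 66 pairs of groups only (-0.22 to 0.57). The 0 h groups did deviate together by number (0.39 to 0.57). The block changed no other call count, but it fits a single shift for all times and cannot take out a shift particular to 0 h. With 2 libraries a group, differences between lines in the response of the size of the errors given could not be detected, and MMP1 was below detection. The alternatives for the step, for single genes at 1 h and 2 h, and without all 0 h libraries of 1 replicate number were chosen after seeing the data.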
